A study of Mus musculus with 18 samples.

Results

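The mitochondrial ribosomal protein genes were followed in splenic CD23+ B lymphocytes of C57BL/6J mice, with and without crosslinking of the B-cell receptor and with and without inhibition of BTK. The members were all genes whose single symbol on the array platform begins with Mrpl or Mrps and a digit, which gave 76 genes from 156 probe sets, of 11104 genes tested. Where a gene had several probe sets, the brightest on average stood for it, and all 76 passed the filter on low signal. The rule used symbols and no fold changes, but it was chosen with earlier results of these data known.

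CD23 is the low-affinity IgE receptor of follicular B cells. Mice were given vehicle or PF-303, which inhibits BTK, a kinase that passes B-cell receptor signals to phospholipase C. After 2 h PBS or anti-IgD antibody, which crosslinks the receptor in vivo, was given, and cells were taken 2 h later. There were 4 samples each of vehicle followed by PBS and vehicle followed by anti-IgD, and 5 each of PF-303 followed by PBS and PF-303 followed by anti-IgD. The labels name no other allele, and every group had an injection of vehicle or drug. They do not state that samples are different animals, and p-values therefore measure sample-to-sample spread that may be technical.

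The mitochondrial ribosome is a machine separate from the cytosolic ribosome and makes only the few proteins encoded in mitochondrial DNA, which are core subunits of the respiratory chain and of ATP synthase. Its RNAs come from the mitochondrial genome, whereas its proteins are all encoded in the nucleus, made in the cytosol and imported. Some of these proteins have counterparts in bacterial ribosomes, and others were added in the course of mitochondrial evolution. Activated lymphocytes are known to enlarge their mitochondria before they divide.

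Signals were MAS5 intensities on a linear scale, and each array had been scaled to one trimmed mean. Fold changes are differences of log2(signal + 16) with standard errors from limma, and calls were made below an adjusted p of 0.05. In 6 of the 18 arrays the hybridization spike-in signal was more than 2 times its median. They comprised replicates 3 and 4 of the PBS samples with vehicle, replicates 3 and 4 of those with PF-303, and replicates 1 and 3 of the anti-IgD samples with PF-303. No anti-IgD sample with vehicle was among them, so counts without the 6 arrays are given beside each comparison. All 7 follicular B cell markers measured, Fcer2a for CD23 among them, passed the filter. Of 6 T cell markers on the array 4 passed and Cd3e and Cd4 did not, and the summed signal of the 6 ranged from 44.0 to 134 over the 18 samples. All 8 macrophage and monocyte markers passed, with sums from 914 to 3221. Sums of the 6 marginal zone and B1 markers were 2866 to 3532 with anti-IgD and vehicle and 3823 to 4923 with anti-IgD and PF-303. Between PBS and anti-IgD with vehicle, stromal and endothelial sums (197 to 399 and 96.9 to 126, 2 of 6 markers passed) did not overlap. Nor did germinal centre sums (124 to 207 and 216 to 312). Stromal and endothelial sums were 143 to 193 with anti-IgD and PF-303. The summed signal of the 7 follicular markers lay between 14237 and 16930 with anti-IgD and vehicle, which did not overlap with 19989 to 37384 with PBS and vehicle, 19931 to 34475 with PBS and PF-303 or 20083 to 29473 with anti-IgD and PF-303. The part of these differences in the values below was not tested. In such bulk samples, fewer cells of a type and less RNA per cell cannot be told apart.

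The first comparison asked what receptor crosslinking did to these genes without the inhibitor. Of the 76 genes, 28 rose and 10 fell with anti-IgD in vehicle-treated mice, against 17.4% and 30.6% of all genes tested (47.9% in either direction). The largest rise was that of Mrps6, followed by Mrpl17, Mrpl12 and Mrps18b, and the largest fall was that of Mrps16. The median log2 fold change was 0.10 over the 76 genes and -0.13 over all genes tested. That median was positive under each scaling tried, but the counts depended on it: shifting every array to one median raised it to 0.26 and gave 39 genes higher and 7 lower (84.8% of calls higher, against 73.7% as deposited), beside 2777 and 2178 of all 11104 genes, and moved the median of all genes to 0.04. With the 6 high spike-in arrays left out, 25 genes were higher and 13 lower.

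**Figure D1:**
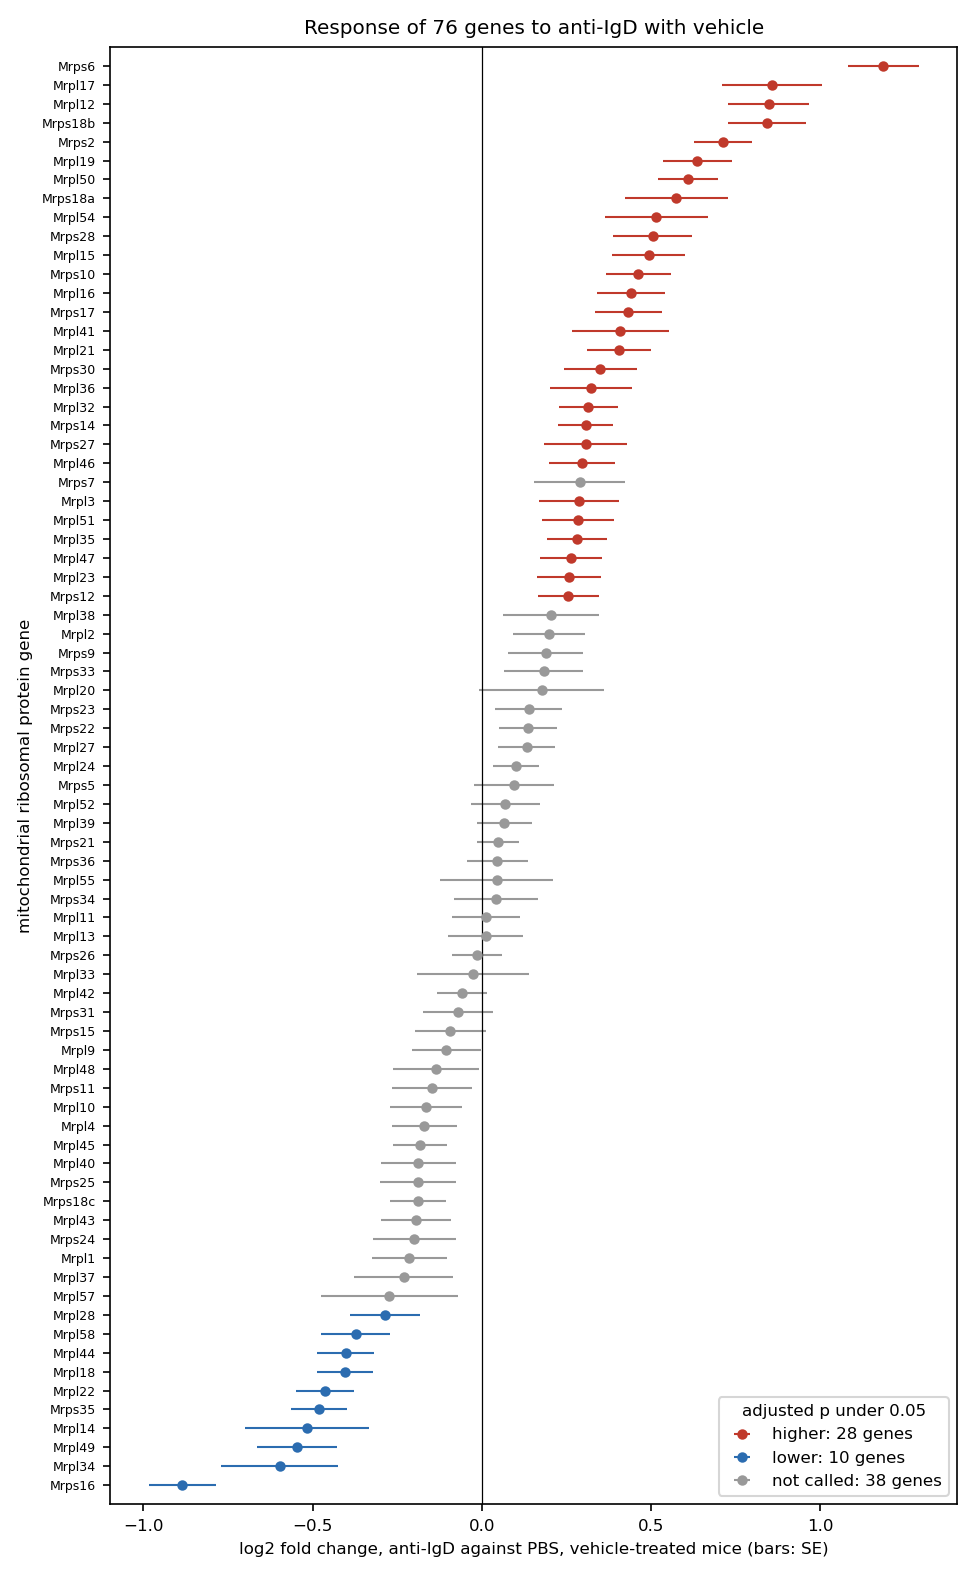
The log2 fold change of each of the 76 genes with vehicle, anti-IgD minus PBS, on the horizontal axis with its standard error, ordered by size. Red points rose (28 genes), blue points fell (10 genes) and grey points were not called, and Mrps6 at 1.19 and Mrps16 at -0.88 stand at the ends.

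Mrps6 encodes a protein of the small subunit that is related to bacterial S6. Its signals were 123.4, 121.0, 111.6 and 101.4 with PBS and vehicle and 262.9, 273.4, 280.6 and 304.1 with anti-IgD and vehicle. With PF-303 they were 121.7, 120.2, 83.6, 123.1 and 104.1 after PBS and 171.4, 152.4, 171.2, 148.0 and 141.1 after anti-IgD. Every stimulated sample was above every unstimulated one, and the samples given PF-303 and anti-IgD lay between, without overlap on either side. The log2 fold change with anti-IgD and vehicle was 1.19 ± 0.10 (SE, adjusted p = 4.47e-09), and a second probe set of the gene gave 0.97 ± 0.12.

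Mrps6 lies over another gene of the same strand. In RefSeq, Slc5a3, which encodes a sodium-dependent myo-inositol transporter, starts 14 bases before Mrps6 on the same strand and overlaps it. The signal of Slc5a3 went from 34.3 to 54.3 over the 4 samples with PBS and vehicle to 71.7 to 83.5 with anti-IgD and vehicle, and was 33.0 to 55.2 with anti-IgD and PF-303. Slc5a3 rose by 0.65 ± 0.13 (adjusted p = 0.000237) with vehicle, and its fold change was 0.04 ± 0.12 (adjusted p = 0.824) with PF-303. The probe sets differ, and whether transcripts of one add to the signal of the other was not tested. The 150 bases before the start of Slc5a3, which stand before both genes, are shown because both rose. They lie at chr16:92058172-92058321 on the plus strand of GRCm38.p6 (RefSeq) and hold none of the motifs searched below.
Mrps6 and Slc5a3: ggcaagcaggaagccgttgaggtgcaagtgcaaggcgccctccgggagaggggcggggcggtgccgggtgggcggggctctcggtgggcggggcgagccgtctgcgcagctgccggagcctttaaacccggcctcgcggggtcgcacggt

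Mrpl17 and Mrpl12 had the next largest rises. Mrpl17 encodes a large-subunit protein with a bacterial counterpart. Its signals with PBS and vehicle were 417.5, 379.2, 659.4 and 409.0, and with anti-IgD and vehicle they were 753.8, 840.0, 854.1 and 905.7. The groups did not overlap, although replicate 3 of PBS with vehicle, an array of high spike-in signal, stood well above the other 3. The log2 fold change was 0.86 ± 0.15 (adjusted p = 5.18e-05).

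Mrpl12 encodes the protein of the flexible stalk that recruits translation factors, and it has also been described as a partner of the mitochondrial RNA polymerase. Its signals rose from 539.9, 637.3, 734.4 and 490.6 to 985.4, 1071, 1064 and 1213, again without overlap. The log2 fold change was 0.85 ± 0.12 (adjusted p = 4e-06). For Polrmt, the gene of that polymerase, the log2 difference was 0.01 ± 0.08 (adjusted p = 0.967). The 150 bases before the starts of Mrpl17 and Mrpl12 each hold a match to the letters GCGC, any base and TGCGC, on either strand, the core of the motif of NRF1, a regulator of nuclear genes for mitochondria. They are shown with the match in capitals, from chr7:105811088-105811237 on the minus strand and chr11:120484487-120484636 on the plus strand of GRCm38.p6 (RefSeq).
Mrpl17: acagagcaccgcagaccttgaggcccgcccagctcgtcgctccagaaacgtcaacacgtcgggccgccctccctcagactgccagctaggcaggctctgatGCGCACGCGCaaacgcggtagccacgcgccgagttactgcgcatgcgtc
Mrpl12: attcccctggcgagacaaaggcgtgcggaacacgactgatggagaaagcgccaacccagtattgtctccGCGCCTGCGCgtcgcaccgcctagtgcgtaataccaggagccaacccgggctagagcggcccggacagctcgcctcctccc

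The 3 relatives of bacterial S18, Mrps18a, Mrps18b and Mrps18c, did not move alike. They are described together after their values were seen. In the mammalian mitochondrial ribosome their products occupy different places, that of Mrps18a in the large subunit although its symbol assigns it to the small one. Mrps18b went from 176.6 to 264.6 over the 4 samples of PBS with vehicle to 350.3 to 439.6 with anti-IgD and vehicle, which was 0.84 ± 0.12 on the log2 scale (adjusted p = 2.79e-06). Mrps18a rose by 0.57 ± 0.15 (adjusted p = 0.0033), but its groups overlapped, since replicate 3 of PBS with vehicle had a signal of 313.2 and the lowest of anti-IgD with vehicle was 286.7. Mrps18c ranged from 491.6 to 573.4 with PBS and from 448.4 to 506.9 with anti-IgD, and its log2 fold change of -0.19 ± 0.08 did not pass the test.

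Among the 10 largest rises, the others were found in both subunits. Mrps2, a small-subunit protein gene, went from a mean signal of 238.9 ± 14.3 (SD, n = 4) to 402.5 ± 36.4 (n = 4), or 0.71 ± 0.09 on the log2 scale. Mrpl19 rose by 0.64 ± 0.10, Mrpl50 by 0.61 ± 0.09, Mrpl54 by 0.51 ± 0.15 and Mrps28 by 0.51 ± 0.12. Mrpl50 belongs to the proteins found only in mitochondrial ribosomes, and its 4 stimulated samples (220.9, 264.0, 262.8 and 266.7) were above all 4 unstimulated ones (167.4, 179.9, 161.8 and 134.9). The remaining 18 genes that rose did so by 0.26 to 0.49. Among these the calls of Mrps27 (0.24 to 0.30) and Mrpl41 (0.35 to 0.38) ended without replicate 1 or 2 of PBS or replicate 2 or 4 of anti-IgD, and that of Mrps27 also without replicate 5 of anti-IgD. Mrpl15, a large-subunit protein gene, was represented by 7 probe sets that passed the filter, and all 7 were higher with anti-IgD, by 0.43 to 0.71.

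The genes that fell included large changes as well. Mrps16 encodes a small-subunit protein with a bacterial counterpart. Its signals were 740.2, 798.3, 840.0 and 654.6 with PBS and vehicle and 355.1, 429.9, 426.6 and 399.4 with anti-IgD and vehicle. With PF-303 they were 792.8, 762.0, 741.6, 872.1 and 690.0 after PBS and 613.5, 718.7, 628.6, 609.8 and 514.7 after anti-IgD. The vehicle groups were far apart, whereas with the drug the samples of both treatments overlapped. The log2 fold change with vehicle was -0.88 ± 0.10 (adjusted p = 1.6e-07). RefSeq gives Mrps16 more than 1 start, and the 150 bases before the outer one are shown as an example from a falling gene. They lie at chr14:20393635-20393784 on the minus strand of GRCm38.p6 and hold none of the motifs searched. In the longer windows searched below, that of the inner start of Mrps16 has a match to the ETS motif, and that of the outer start has none. The sequences shown are examples and draw no contrast between rising and falling genes. The NRF1 motif was in 12.5% of windows of genes that rose, 20.0% of those that fell and 17.9% of those not called.
Mrps16: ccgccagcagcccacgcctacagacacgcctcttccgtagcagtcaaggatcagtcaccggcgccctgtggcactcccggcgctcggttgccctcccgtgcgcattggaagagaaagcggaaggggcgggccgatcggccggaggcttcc

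Mrpl34, whose product is among the smallest of the large subunit, had signals of 330.5, 336.2, 549.8 and 279.2 with PBS and vehicle and 205.1, 259.7, 258.5 and 216.4 with anti-IgD and vehicle. The groups did not overlap, and the log2 fold change was -0.60 ± 0.17 (adjusted p = 0.00684). Mrpl49, found only in mitochondrial ribosomes, went from 201.1, 209.1, 233.6 and 136.4 to 118.4, 129.1, 127.7 and 129.7 (-0.55 ± 0.12 on the log2 scale, adjusted p = 0.000546). Its second probe set gave -0.79 ± 0.15. Mrps35 went from 212.3, 206.4, 189.1 and 179.3 to 128.5, 134.8, 144.4 and 137.5 (-0.48 ± 0.08, adjusted p = 4.49e-05). The stimulated samples of Mrpl49 and of Mrps35 were each below every unstimulated one.

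The other 6 genes that fell were Mrpl14 (-0.52 ± 0.18), Mrpl22 (-0.46 ± 0.09), Mrpl18 (-0.40 ± 0.08), Mrpl44 (-0.40 ± 0.08), Mrpl58 (-0.37 ± 0.10) and Mrpl28 (-0.29 ± 0.10). The product of Mrpl22 lines the exit tunnel, and that of Mrpl58 is a peptidyl-tRNA hydrolase built into the large subunit. The falls of Mrpl14, Mrpl28 and Mrpl58 rested on the scaling, since after the shift to one median they were -0.35, -0.12 and -0.21 and did not pass the test. That of Mrpl14 also ended (-0.50 to -0.35) without replicate 2 or 3 of PBS or replicate 1 or 5 of anti-IgD, and that of Mrpl28 (-0.27 to -0.21) without replicate 3 of PBS or replicate 1 or 4 of anti-IgD. In 29 of the 76 genes the 4 stimulated and the 4 unstimulated samples with vehicle did not overlap, which is 38.2% of them beside 42.3% of all 11104 genes, and 28 of these 29 were called.

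**Figure D2:**
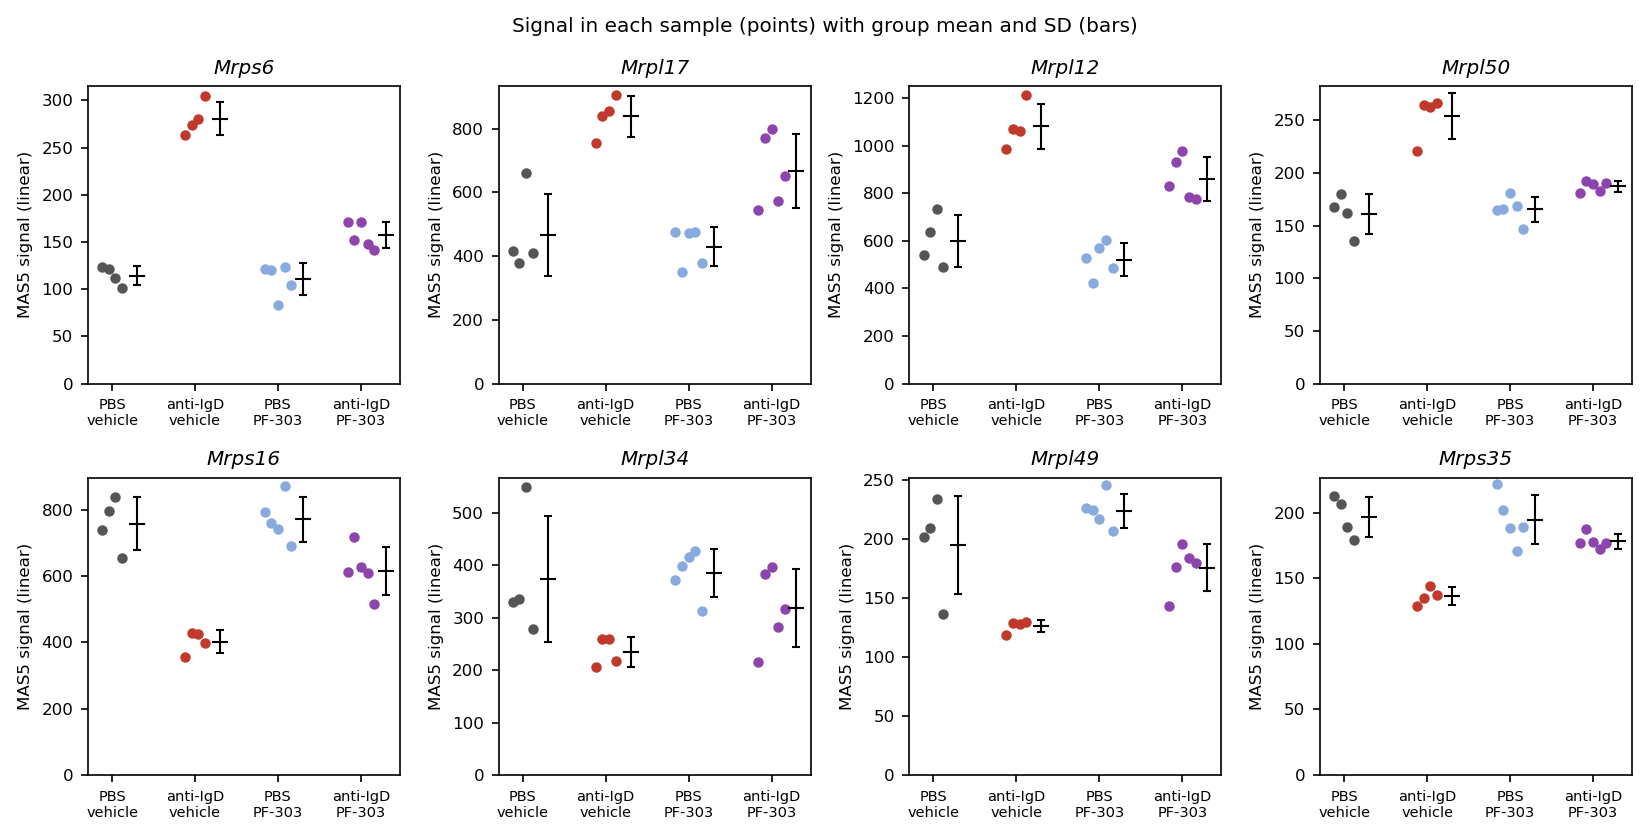
MAS5 signal on a linear axis from 0 in each of the 18 samples (points) for 8 genes, with the mean and standard deviation of each group (bars). Mrps6, Mrpl17, Mrpl12 and Mrpl50 were higher with anti-IgD and vehicle than with PBS and vehicle, Mrps16, Mrpl34, Mrpl49 and Mrps35 were lower, and most samples given anti-IgD and PF-303 lay in between.

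The genes were counted in 4 classes that follow the subunit in the symbol, so that Mrps18a stands with the small subunit. Mrps30 was the exception. It was counted with the large-subunit genes found only in mitochondria, where it was among those that rose. Of 18 small-subunit genes with a bacterial counterpart, 9 rose and 1 (Mrps16) fell, and the median on the log2 scale was 0.27. Of 28 large-subunit genes with a bacterial counterpart, 12 rose and 5 fell, with a median of 0.15. Of 20 large-subunit genes found only in mitochondria, 6 rose and 3 fell (median -0.01), and of 10 such small-subunit genes 1 (Mrps27) rose and 1 (Mrps35) fell (median 0.04). Together, 21 of 46 genes with a bacterial counterpart rose (median 0.19), against 7 of 30 without one (median 0.04). With Mrps18a moved to the large subunit, the classes with a bacterial counterpart held 8 that rose and 1 that fell of 17 for the small subunit (median 0.26), and 13 and 5 of 29 for the large one (median 0.18). After the shift of arrays to one median the medians of the 4 classes were 0.44, 0.32, 0.16 and 0.21 in the order first given, and that of the large-subunit genes found only in mitochondria was thus no longer below 0. The difference between these classes was not tested, and genes of a class are not replicates. The class without a bacterial counterpart includes Mrps36, whose product is now regarded as part of the 2-oxoglutarate dehydrogenase complex and whose log2 fold change was 0.05 ± 0.09 (adjusted p = 0.713).

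**Figure D3:**
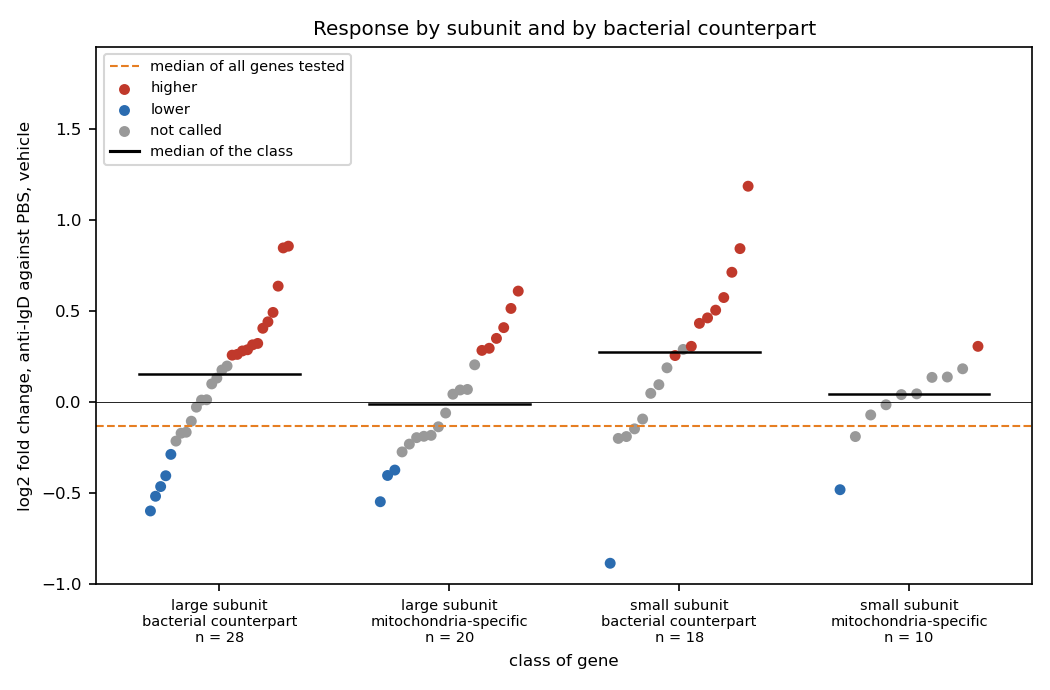
Each point is 1 gene, placed by class on the horizontal axis and by its log2 fold change, anti-IgD against PBS with vehicle, on the vertical axis, with black lines for class medians and a dashed line for the median of all genes tested. Class medians ranged from -0.01 to 0.27 and lay above the median of all genes, -0.13 (the lowest turned from -0.01 to 0.16 after the shift of arrays to one median), and every class held genes that rose and genes that fell.

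The second comparison asked what PF-303 did to stimulated cells. Of the 76 genes, 9 were higher and 10 lower with PF-303 than with vehicle after anti-IgD, against 19.8% and 10.4% of all genes tested (30.2% in either direction). The largest decrease was that of Mrps6 and the largest increase that of Mrps16. The median was 0.01 over the 76 genes and 0.08 over all genes, and it turned to -0.10 when arrays were shifted to one median and to -0.05 after quantile normalization. The shift gave 4 genes higher and 19 lower (17.4% of calls higher, against 47.4% as deposited), beside 11.6% and 15.3% of all genes, so no direction is given for the family as a whole. The summed signals of the follicular, the marginal zone and B1, and the stromal and endothelial markers given above also did not overlap between these groups. Their part was not tested. With the 6 high spike-in arrays left out, 10 genes were higher and 10 lower.

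This comparison shares the samples of anti-IgD with vehicle with the first, so the values are set side by side and no relation between them is drawn. Mrps6 was lower with PF-303 with a log2 value of -0.78 ± 0.10 (adjusted p = 3.72e-06), after 1.19 with anti-IgD. Mrps2 was lower (-0.41 ± 0.08, after 0.71), as were Mrpl50 (-0.41 ± 0.08, after 0.61) and Mrpl19 (-0.39 ± 0.10, after 0.64). Mrps18b (-0.39 ± 0.11), Mrps28 (-0.39 ± 0.11), Mrps10 (-0.38 ± 0.09), Mrpl12 (-0.33 ± 0.11), Mrpl15 (-0.32 ± 0.10) and Mrps5 (-0.30 ± 0.11) completed the list. Mrps5, a small-subunit protein gene, had not been called with anti-IgD (0.10 ± 0.12). Mrpl17, the gene with the second largest rise, stood at -0.34 ± 0.14 (adjusted p = 0.0765) and did not pass the test. The call of Mrpl12 was lost in 6 fits that left out 1 sample of the stimulated groups (-0.34 to -0.27), that of Mrpl15 without replicate 5 with vehicle or replicate 4 with PF-303 (-0.26 to -0.23), and that of Mrps5 in 11 fits.

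Mrps16 was higher with PF-303 by 0.59 ± 0.09 (adjusted p = 4.87e-05), after -0.88 with anti-IgD. Mrps18c followed with 0.46 ± 0.08 (adjusted p = 0.000121). Its signals were 448.4, 470.3, 456.0 and 506.9 with anti-IgD and vehicle and 596.5, 714.8, 734.0, 673.9 and 561.9 with anti-IgD and PF-303, without overlap, while Mrps18b moved the other way. Mrpl49 (0.42 ± 0.11), Mrps35 (0.35 ± 0.08), Mrpl58 (0.34 ± 0.10), Mrpl22 (0.30 ± 0.08), Mrpl44 (0.28 ± 0.08), Mrpl18 (0.27 ± 0.08) and Mrps21 (0.17 ± 0.06) were also higher. Those of Mrpl18, Mrpl22, Mrpl44, Mrpl58 and Mrps21 did not pass the test after the shift to one median, and those of Mrpl44, Mrpl49 and Mrps21 did not after quantile normalization (adjusted p = 0.0603, 0.0507 and 0.0933). The call of Mrpl18 ended without replicate 5 (0.19) and that of Mrpl58 without replicate 2 (0.28) of anti-IgD with vehicle. With the row letter of a position code in the sample descriptions as a block, 3 genes were higher and 8 lower, and the call of Mrpl49 ended (0.30, adjusted p = 0.246).

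The third comparison asked whether PF-303 changed these genes in unstimulated cells. None of the 76 was called in limma between PF-303 and vehicle after PBS, where 0.747% of all genes tested were (0.0720% higher and 0.675% lower). At an unadjusted p under 0.05 there were 4, of which 3 were higher and 1 lower. The smallest adjusted p was 0.342, for Mrps21, and the largest log2 fold change in size was -0.28 ± 0.14, for Mrpl37. The median 95% interval of these fold changes reached 0.20 to either side. No alternative setting and no single sample left out gave a call.

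The fourth comparison asked how much of the response to anti-IgD remained under PF-303. Of the 76 genes, 16 rose and 5 fell with anti-IgD in PF-303-treated mice, against 14.7% and 19.1% of all genes tested (33.8% in either direction). Mrpl12 and Mrps18b had the largest rises, and Mrps6 stood behind Mrpl12, Mrps18b, Mrpl17 and Mrpl41. The median was 0.09 over the 76 genes and -0.05 over all genes, and it was positive under each scaling tried. With the 6 high spike-in arrays left out, 17 genes were higher and 3 lower. Leaving out replicate 4 of PBS with PF-303 also reduced the falls to 3, by ending those of Mrpl44 and Mrpl49. The shift to one median also ended the fall of Mrpl44 (-0.19, adjusted p = 0.0746).

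Mrpl12 had signals of 528.5, 422.4, 570.8, 602.0 and 484.2 with PBS and PF-303 and 830.8, 933.4, 978.8, 783.5 and 774.8 with anti-IgD and PF-303, without overlap. Its log2 fold change was 0.71 ± 0.11 (adjusted p = 1.69e-05), beside 0.85 with vehicle. Mrps18b rose by 0.69 ± 0.10 and Mrpl17 by 0.61 ± 0.13, beside 0.84 and 0.86. Mrpl41 (0.48 ± 0.13), Mrps6 (0.46 ± 0.09), Mrpl54 (0.46 ± 0.14), Mrps27 (0.40 ± 0.11), Mrps18a (0.38 ± 0.14), Mrps2 (0.36 ± 0.08) and Mrps17 (0.35 ± 0.09) followed. Mrps27 belongs to the pentatricopeptide repeat proteins, which bind RNA. The rise of Mrps18a was lost in 7 fits that left out 1 sample (0.30 to 0.38), and its groups overlapped. The 5 falls were those of Mrpl49 (-0.33 ± 0.11), Mrps16 (-0.32 ± 0.09), Mrpl18 (-0.25 ± 0.08), Mrpl45 (-0.24 ± 0.07) and Mrpl44 (-0.23 ± 0.08). The product of Mrpl45 ties the ribosome to the inner mitochondrial membrane.

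The 2 responses to anti-IgD share no samples and could be set against each other. With vehicle 38 genes were called and with PF-303 21, and 20 genes were called in both, always in the same direction (16 higher and 4 lower). These are 52.6% of the calls with vehicle and 95.2% of those with PF-303, and Mrpl45 was the only gene called with PF-303 alone. The matching shares over all genes tested were not counted, so these shares are not read as particular to the family. Over the 76 genes Pearson's r between the fold changes was 0.86 and Spearman's rho 0.85, as a description across genes, which are not independent, and r over all genes tested was 0.81. The fold changes had a standard deviation across genes of 0.38 with vehicle and 0.22 with PF-303.

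**Figure D4:**
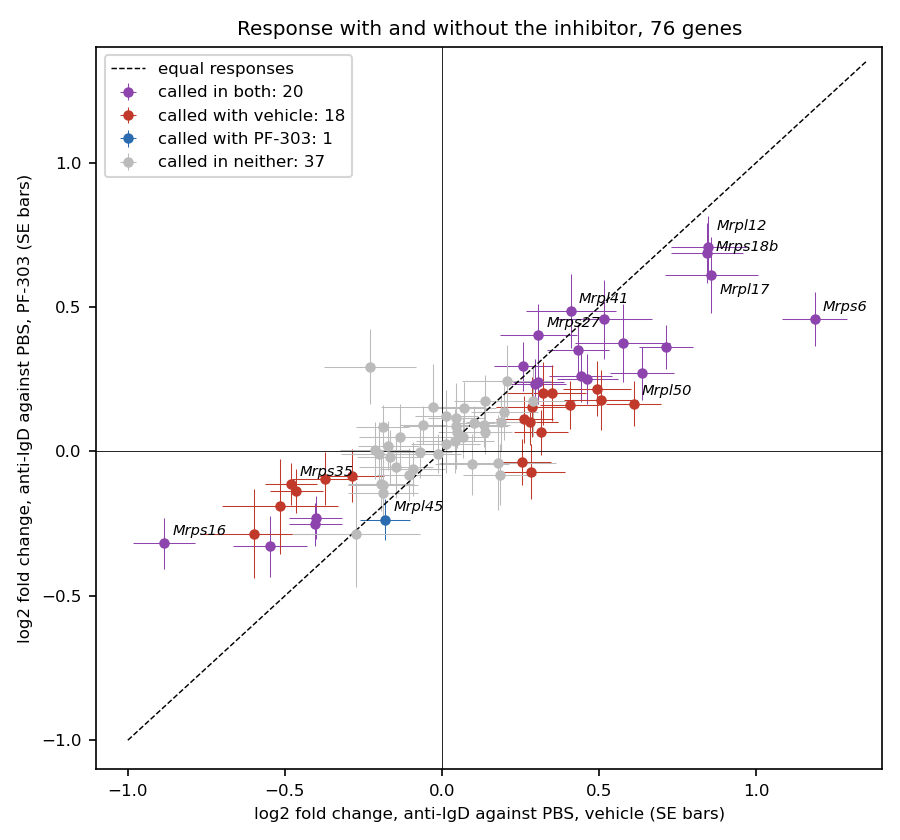
The log2 fold change of each of the 76 genes with anti-IgD in PF-303-treated mice (vertical axis) against that in vehicle-treated mice (horizontal axis), with standard errors and a dashed line for equal responses. The 20 genes called in both lie in the upper right and lower left, and Mrps6 (1.19 and 0.46) and Mrps16 (-0.88 and -0.32) lie far from the dashed line, while Mrpl41 and Mrps27 lie close to it.

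The difference between the 2 responses was tested as an interaction. It was called for 4 genes, 2 higher and 2 lower, against 9.78% of all genes tested (6.66% higher and 3.12% lower), and 13 had an unadjusted p under 0.05. The rise of Mrps6 was smaller with PF-303 by -0.73 ± 0.14 (adjusted p = 0.00212) and that of Mrpl50 by -0.44 ± 0.12 (adjusted p = 0.0203). The fall of Mrps16 was smaller by 0.57 ± 0.13 (adjusted p = 0.00918) and that of Mrps35 by 0.37 ± 0.11 (adjusted p = 0.0375). Mrpl50 had signals of 164.7, 165.6, 181.2, 168.3 and 147.1 with PBS and PF-303 and 181.2, 192.6, 189.2, 182.5 and 190.1 with anti-IgD and PF-303. Mrps35 had 222.0, 202.1, 188.6, 170.9 and 189.3, and 176.4, 187.5, 177.4, 172.0 and 177.0, in the same groups. For Mrps35 these 2 groups overlapped.

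Mrpl37, a protein found only in mitochondrial ribosomes, had the third largest interaction in size, 0.52 ± 0.20, which did not pass the test (adjusted p = 0.0959). Its signals ranged from 108.5 to 170.0 with PBS and vehicle, 93.1 to 135.6 with anti-IgD and vehicle, 102.2 to 129.8 with PBS and PF-303, and 109.6 to 181.1 with anti-IgD and PF-303, and all groups overlapped. For Mrpl12, Mrps18b and Mrpl17 the interactions were -0.14 ± 0.16 (adjusted p = 0.652), -0.16 ± 0.15 (adjusted p = 0.586) and -0.25 ± 0.20 (adjusted p = 0.491), which does not show that their 2 responses were alike. Of the 4 calls, that of Mrps35 was lost in 11 of the 18 fits that left out 1 sample (values from 0.33 to 0.41 over all 18). With the 6 high spike-in arrays left out only Mrps6 and Mrps16 remained called, with Mrpl50 at -0.28 (adjusted p = 0.227). With the position row as a block no gene was called higher and 2 were lower, with Mrps16 at 0.45 (adjusted p = 0.203) and Mrps35 at 0.29 (adjusted p = 0.311). The shift to one median gave 1 higher and 6 lower, beside 3.11% and 6.20% of all genes, and ended the call of Mrps35 (0.24, adjusted p = 0.173).

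Promoter sequences from RefSeq (GRCm38.p6) were found for 67 of the 76 genes, in 73 windows of 250 bases before to 50 after a start. Motifs were searched on both strands: CCGGAAG, bound by ETS factors such as GABP, GCGC followed by any base and TGCGC for NRF1, AAGATGGCG for YY1, and the E-box CACGTG, bound by MYC with MAX. The ETS motif was in 25 windows (34.2%), beside 18.1% of the 11195 windows of all genes tested. The YY1 motif was in 8 (10.96%, beside 3.11%) and the NRF1 motif in 12 (16.4%, beside 10.3%), of which 3 held the strict form with A as the free base. The E-box was in 7 (9.59%, beside 10.1%). Median GC content was 58.7% in the windows of these genes and 60.7% in those of all genes tested.

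The motifs were set against the direction of the response to anti-IgD with vehicle. The ETS motif was in 8 of 24 windows of genes that rose, 5 of 10 of genes that fell and 12 of 39 of genes not called. The NRF1 motif was in 3, 2 and 7 of these, the YY1 motif in 4, 0 and 4, and the E-box in 1, 0 and 6. A gene with several starts has several windows, and Mrpl2 gave more than 1 of the 6 with an E-box. These matches are descriptions of the windows and not of binding.

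Many of these genes start back to back with another gene. Of the 67 genes with a window, 23 (34.3%) had a gene on the other strand starting at most 1000 bases away and running in the opposite direction, beside 13.8% of the 8749 genes tested with a window. This comparison was chosen after the values were seen and is a description. In 20 pairs both genes were tested, and the log2 fold changes with anti-IgD and vehicle had the same sign in 6 and opposite signs in 14, where 53.7% of all 516 such pairs had the same sign. Both genes were called in 4 pairs, all in opposite directions, and in 165 pairs of all genes, 38.8% of which were in opposite directions. These signs depended on the scaling, in alternatives chosen after seeing the data. After the shift of arrays to one median the signs were the same in 9 pairs and opposite in 11 (53.9% the same over all pairs), and after quantile normalization in 8 and 12 (54.8%). Of the pairs called in both genes, 3 of 4 were then in opposite directions after the shift and 2 of 2 after quantile normalization, beside 38.6% and 41.5% of all such pairs.

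In 3 of the 4 pairs called as deposited the mitochondrial ribosomal protein gene was the one that rose. Mrpl41 rose by 0.41 and Pnpla7, a lysophospholipase gene, fell by 0.28 on the log2 scale. Mrpl51 rose by 0.28 and Ncapd2, which encodes a condensin subunit, fell by 0.82. Mrps27 rose by 0.31 and Ptcd2 fell by 0.32. The falls of Pnpla7 and Ptcd2 did not pass the test after the shift to one median (-0.12, adjusted p = 0.3, and -0.16, adjusted p = 0.288), nor did the rise of Mrpl51 after quantile normalization (0.22, adjusted p = 0.0904). In the fourth pair Mrpl18 fell by 0.40 and Tcp1, a subunit of the chaperonin CCT, rose by 0.44. Mrpl43, with -0.19 ± 0.10 and no call, starts 116 bases from Twnk, the mitochondrial DNA helicase gene, which rose by 0.69 ± 0.10.

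The bases between the starts of 3 close pairs are shown in the direction of the first gene, because each stretch lies before both of its genes. The pair Mrpl46 and Mrps11, the only one of 2 mitochondrial ribosomal protein genes, had log2 fold changes of 0.30 ± 0.10 and -0.15 ± 0.12, the first called and the second not. Mrpl50, at 0.61, faces Zfp189, a zinc finger gene with -0.30 ± 0.17 (adjusted p = 0.166). In capitals is a match to the ETS motif. The stretches lie at chr7:78783090-78783130 (minus strand), chr13:99344679-99344785 (plus strand) and chr4:49521084-49521175 (minus strand) of GRCm38.p6 (RefSeq).
Mrpl46 to Mrps11: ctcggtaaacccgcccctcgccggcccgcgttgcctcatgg
Mrps27 to Ptcd2: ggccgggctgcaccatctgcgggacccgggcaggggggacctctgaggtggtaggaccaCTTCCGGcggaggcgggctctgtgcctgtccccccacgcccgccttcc
Mrpl50 to Zfp189: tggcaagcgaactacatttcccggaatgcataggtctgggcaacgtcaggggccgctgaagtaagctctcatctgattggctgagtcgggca

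**Figure D5:**
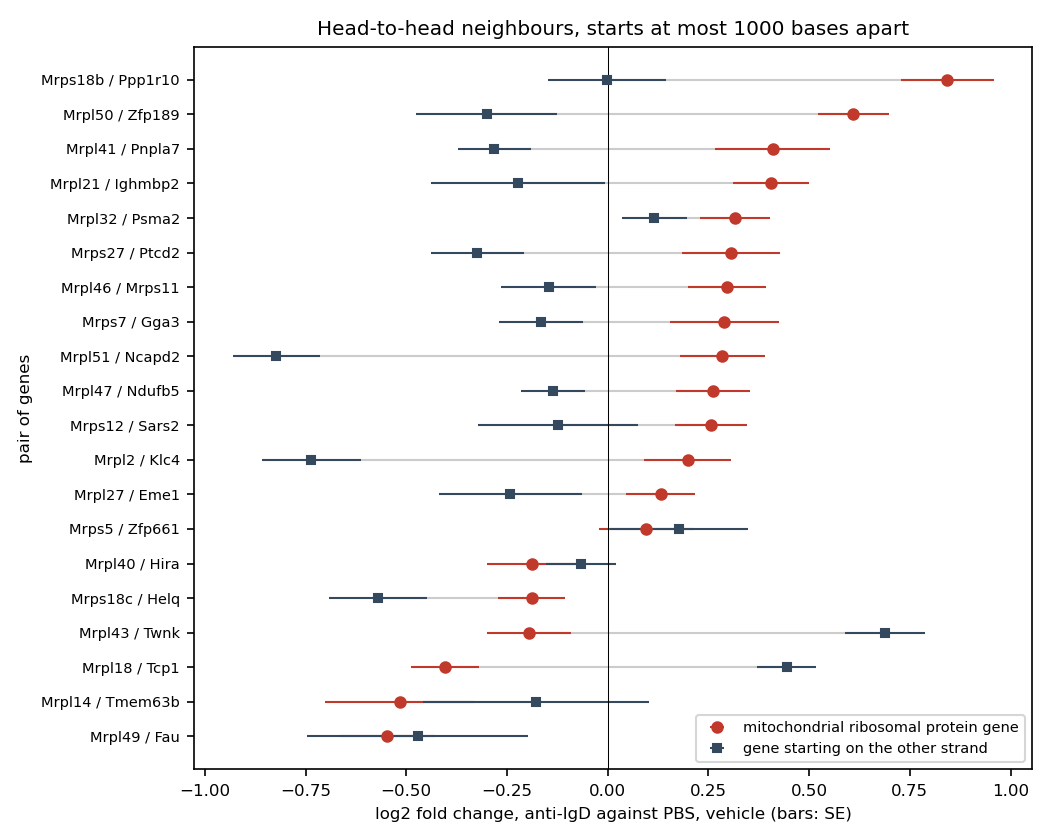
The 20 pairs of head-to-head genes, with the log2 fold change, anti-IgD against PBS with vehicle, of the mitochondrial ribosomal protein gene (red circles) and of its neighbour (dark squares) on the horizontal axis and standard errors as bars. In 14 pairs the symbols lie on opposite sides of 0 (11 after the shift of arrays to one median), as for Mrpl51 and Ncapd2 at 0.28 and -0.82.

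Genes that work with the mitochondrial ribosome were taken from lists chosen by function. Their counts with anti-IgD and vehicle stand beside 17.4% higher and 30.6% lower of all genes tested. Dap3, a small-subunit protein gene with no systematic symbol, fell by 0.27 ± 0.07 with anti-IgD and vehicle, while Ptcd3 (0.57 ± 0.10) and Chchd1 (0.28 ± 0.10) rose, of 4 such genes. Of 26 genes for ribosome assembly and rRNA modification, 9 rose and 8 fell, with Rcc1l (0.83 ± 0.14) and Trmt61b (0.81 ± 0.09) highest and Mpv17l2 (-0.75 ± 0.13) and Mrm2 (-0.61 ± 0.14) lowest. Of 11 translation factor genes 2 rose and 2 fell. These were Mrrf, the recycling factor (0.69 ± 0.12), and Tufm, the elongation factor (0.53 ± 0.13), and Oxa1l, the membrane insertase (-0.52 ± 0.11), and Mtif3, an initiation factor (-0.44 ± 0.09). The median of the assembly list was -0.02 and that of the factors 0.01, beside -0.13 for all genes. After the shift to one median they were 0.14 and 0.17 beside 0.04, and 11 assembly genes were higher and 4 lower and 5 factors higher and 2 lower. The fall of Dap3 did not pass the test after the shift (-0.11, adjusted p = 0.253), and the rise of Chchd1 (0.22, adjusted p = 0.0792) and the fall of Mtif3 (-0.22, adjusted p = 0.0652) did not after quantile normalization.

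Of 16 mitochondrial aminoacyl-tRNA synthetase genes, which charge the tRNAs, 2 rose (Nars2, 0.72 ± 0.16, and Yars2, 0.70 ± 0.09) and 6 fell, led by Cars2 (-0.79 ± 0.12) and Aars2 (-0.77 ± 0.23), with a median of -0.17. Of 23 genes for the upkeep and expression of mitochondrial DNA, 11 rose and 6 fell (median 0.22). Fastkd3 (1.06 ± 0.09) and the RNA helicase gene Supv3l1 (1.03 ± 0.09) rose most, and Polg2, the accessory subunit of the DNA polymerase (-0.88 ± 0.11), and Mterf1a (-0.77 ± 0.11) fell most. Tfam, which packages mitochondrial DNA, fell by 0.27 ± 0.07 (adjusted p = 0.00421), a call that ended after the shift to one median (-0.11, adjusted p = 0.286). The shift left 2 synthetase genes higher and 2 lower (median -0.01) and 12 and 2 of the genes for mitochondrial DNA (median 0.38), and quantile normalization turned the median of the synthetases to 0.02.

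Of 10 regulators of growth and of mitochondrial genes, 5 rose and none fell in limma (5 of 10 were not called), with Myc at 2.44 ± 0.13 and the PGC-1-related coactivator gene Pprc1 at 1.58 ± 0.10. With PF-303 against vehicle these were the genes of all 6 lists that were called in unstimulated cells, for Myc -0.96 ± 0.13 (adjusted p = 0.000137) and Pprc1 at -0.43 ± 0.09 (adjusted p = 0.0282). The same contrast after anti-IgD gave -1.65 ± 0.13 for Myc and -0.71 ± 0.09 for Pprc1. Of the 10 genes, 1 was called higher and 2 lower there, and the highest log2 value was 0.60. The interaction was -0.69 ± 0.18 for Myc (adjusted p = 0.0168). In cells given PF-303, anti-IgD raised Myc by 1.75 ± 0.12 and Pprc1 by 1.30 ± 0.09.

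In stimulated cells, PF-303 against vehicle gave 3 higher and 6 lower calls of 26 assembly genes, 2 and 0 of 11 translation factor genes, 1 and 2 of 16 synthetase genes, and 4 and 7 of 23 genes for mitochondrial DNA. Of all genes tested, 19.8% were higher and 10.4% lower. Mettl17 (0.50 ± 0.10) and Mpv17l2 (0.47 ± 0.12) were highest and Rcc1l (-0.58 ± 0.13) and Trmt61b (-0.50 ± 0.09) lowest among the assembly genes. Among those for mitochondrial DNA, Elac2 (-0.69 ± 0.11) and Supv3l1 (-0.68 ± 0.08) were lowest, and the highest value was 0.59. After the shift the counts of these lists were 2 and 7, 1 and 3, 1 and 2, and 2 and 9, beside 11.6% and 15.3% of all genes. After quantile normalization the increase of Mpv17l2 did not pass the test (0.33, adjusted p = 0.0508).

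Cytosolic ribosomal protein genes and nuclear genes of oxidative phosphorylation were counted as the nearest groups. Both were taken by symbol, and the second also holds assembly factor genes such as Ndufaf2. With anti-IgD and vehicle, 6 of 45 cytosolic ribosomal protein genes rose and 1 fell (median -0.38), and 16 of 88 oxidative phosphorylation genes rose and 11 fell (median -0.02). Of all genes tested, 17.4% rose and 30.6% fell. Positive fold changes, called or not, were found in 7 of the 45 and 42 of the 88, beside 47 of the 76. The median of the 76 mitochondrial ribosomal protein genes was 0.10. Quantile normalization turned the median of the cytosolic genes to 0.01, and the shift to one median turned that of the oxidative phosphorylation genes to 0.15 (24 higher and 5 lower). With PF-303 against vehicle after anti-IgD, the counts were 1 higher and 4 lower of 45 and 19 higher and 5 lower of 88, beside 9 and 10 of 76. Called or not, 37 of the 45, 69 of the 88 and 39 of the 76 had positive fold changes as deposited. The medians were 0.46, 0.16 and 0.01 in that order. After the shift the counts of calls were 0 and 4 of 45 and 6 and 7 of 88, beside 4 and 19 of 76. The differences between these groups were not tested.

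Several probe sets per gene allowed a check of the directions. Of 37 genes with more than 1 probe set above the filter, 26 had the same sign in all of them with anti-IgD and vehicle, and no gene was called in both directions. For 18 of the 37 the probe set used was called, and for 8 of these another probe set was called in the same direction. Mrpl50 was one of them, with 0.75 ± 0.12 from its second probe set, whereas the second probe set of Mrpl17 gave 0.29 ± 0.17 (adjusted p = 0.191) and that of Mrpl34 gave -0.33 ± 0.26 (adjusted p = 0.324). All signs were the same in 22 of the 37 genes for PF-303 after anti-IgD, 24 for anti-IgD with PF-303 and 18 for the interaction. In that order, another probe set had the same call for 6 of 8, 3 of 10 and 1 of 2 genes whose used probe set was called.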

How the data were processed

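RNA from 18 samples was labelled with the GeneChip 3' IVT Express kit from 150 ng of total RNA and hybridized to Affymetrix Mouse Genome 430 2.0 arrays, per the labels' protocols. The deposited values are MAS5 signals, a linear intensity per probe set, made by the authors with MAS5, per the submitters' processing notes. Version and settings are not given in the sources used here. Each array had a 2%-trimmed mean of 99.96 to 99.97, so differences in total RNA per cell are removed, and depth does not apply to arrays, whose number limits the precision. MAS5 sets perfect-match against mismatch probes, which makes low values noisy.

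Of 45101 probe sets, 64 controls were left out. Values were taken as log2(signal + 16), which understates the change of low genes. Probe sets were kept where 4 or more arrays exceeded 15.194, the overall median signal, and the one of the highest mean was used per gene, giving 11104 genes. Symbols came from the platform annotation, updated through gene identifiers in a RefSeq table of GRCm38.p6. All 18 arrays entered 1 fit in limma 3.58.1 (R 4.3.3; eBayes with a trend, two-sided, Benjamini-Hochberg over 11104 genes), checked on simulated data. The 4 comparisons between groups and the interaction were contrasts of this fit. No arrays held identical values. Promoter windows came from RefSeq.

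Named were, per contrast, the 10 largest called changes in each direction, every called interaction, and Tfam, Polrmt, Myc, Dap3 and Mrpl12. Per list, the 2 largest in each direction were named for anti-IgD with vehicle, and only some were for the other contrasts. Values per sample were given for the 3 largest rises, falls and interactions. Other genes so shown were chosen after their values were seen. The members and lists were chosen with earlier results of these data known. Alternatives covered the offset, filter, scaling, probe set choice, variance model, groups fitted, spike-in signal, position code, replicate number and each sample left out. Same-numbered samples of different groups had correlations from -0.161 to 0.225, with 7 of 24 pairs over 0.1, so the numbers were not taken as pairs. The 3 pairs of replicate 3, from arrays of high spike-in signal, were among the 7 (0.144 to 0.199), and the labels do not say what the numbers mark. The class of Mrps18a and the scaling of lists and head-to-head pairs were alternatives chosen after seeing the data.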

Additional observations from a re-analysis of the deposited data

Results flagged for a closer look

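In 48 combinations of gene and group, the highest and lowest sample was compared with the others by Dixon's ratio, and 3 stood apart, where chance alone gives about 1 in 20. For Mrpl17, replicate 3 of PBS with vehicle had a signal of 659.4, with the other 3 samples between 379.2 and 417.5. For Mrps18a the same sample had 313.2, with the others between 192.9 and 205.6, and it is one of the arrays of high spike-in signal. For Mrpl50, replicate 1 of anti-IgD with vehicle had 220.9, with the others between 262.8 and 266.7.

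The responses to anti-IgD with PF-303 and with vehicle differed by the interaction test for 4 genes. The difference was -0.73 for Mrps6, -0.44 for Mrpl50, 0.37 for Mrps35 and 0.57 for Mrps16, on the log2 scale.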

How the results depend on the processing

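Of the 76 genes, 30 were recomputed under the 14 settings and the 18 fits without 1 sample, the largest changes, the 3 Mrps18 genes and Mrpl37 among them. None of their 65 called values over the 5 contrasts changed sign, whereas 25 of the values not called did in at least 1 of these. Other named genes were recomputed under the scalings only. Counts of genes moved by more than 1.5 times in these cases. After the shift of arrays to one median, PF-303 against vehicle after anti-IgD gave 4 higher and 19 lower, and the interaction 1 higher and 6 lower. With the position row as a block, PF-303 against vehicle after anti-IgD gave 3 higher, anti-IgD with PF-303 gave 9 higher and 3 lower, and the interaction 0 higher (2 lower), with Mrps16 at 0.45 (adjusted p = 0.203). This block kept 26 of the 38 calls of anti-IgD with vehicle and 9 of the 19 of PF-303 after anti-IgD, and what the position code stands for is not given. With the 6 high spike-in arrays left out, anti-IgD with PF-303 gave 3 lower and the interaction 1 higher and 1 lower. The interaction gave 1 higher with no filter and 1 higher after quantile normalization. The cause of these moves was not tested.

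Leaving out 1 sample gave 20 to 28 higher and 8 to 13 lower for anti-IgD with vehicle, 7 to 12 higher and 7 to 11 lower for PF-303 after anti-IgD, 11 to 16 higher and 3 to 5 lower for anti-IgD with PF-303, 1 to 3 higher and 2 to 4 lower for the interaction, and 0 to 0 for PF-303 after PBS. The interaction had 4 lower without replicate 3 of PBS with PF-303. The call of Mrps5 under PF-303 was lost in 11 of these fits and that of Mrps21 in 7. With the replicate block, the counts were 29 higher and 9 lower for anti-IgD with vehicle, 9 and 14 for PF-303 after anti-IgD, 16 and 5 for anti-IgD with PF-303, and 3 and 2 for the interaction. Few arrays per group limit what can be seen, with a median standard error of 0.10 for anti-IgD with vehicle and 0.14 for the interaction.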
